A study of Saccharomyces cerevisiae with 10 samples.

Results

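The 36 genes described here encode the proteasome of budding yeast, its transcription factor and a few factors that assemble it or bind to it. They were chosen by name and not by a rule on their values, although earlier results of these data were known. All 36 were found among 5824 measured features and passed the filter on low values. The set held 14 subunits of the 20S core particle, 18 subunits of the 19S regulatory particle, the transcription factor RPN4, the assembly chaperone UMP1 and the proteasome-binding proteins ECM29 and BLM10. The study asked which transcripts change when extra copies of an essential gene of RNA metabolism lengthen the replicative lifespan of yeast. RNA was sequenced from 5 strains in the haploid BY4741 background, with 2 independent cultures of each and 10 libraries in all. The strains were a control (WT) and strains that carried extra LSM5 (mRNA decay), TIF35 (translation initiation), UTP6 (18S rRNA processing) or PRP22 (splicing), and each of these is named after its added gene followed by OE. Every culture grew untreated in medium without uracil with 2% glucose and was collected at an optical density of 0.4. The added genes sat on a low-copy centromeric plasmid with a URA3 marker under their own promoters and terminators, each strain stock came from an individual colony, and the labels call the control WT without saying whether it carried the empty plasmid.

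The proteasome degrades proteins that carry ubiquitin chains. Its core is a barrel of alpha and beta rings, in which PRE3, PUP1 and PRE2 hold the proteolytic sites, and the 19S particle that caps it has a base, whose RPT ATPases unfold the substrate, and a lid, whose RPN11 removes ubiquitin. Rpn4p drives transcription of most subunit genes by binding the proteasome-associated control element (PACE), is itself a very short-lived substrate of the proteasome, and so ties the level of proteasome transcripts to proteasome capacity.

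The PACE letters GGTGGCAAA were searched on both strands in windows from 250 bases before to 50 bases after the start of each coding gene in the RefSeq annotation of the R64 genome. They stood in the windows of 28 of the 36 genes (77.8%) and in 72 of all 6001 windows (1.2%). Each of the 28 genes held the letters once, 75 to 174 bases before the start (median 113), in the given orientation in 20 genes and in the reverse orientation in 8. The stretches of the genes that the results turn on are shown first, read along each gene's own strand, with the PACE letters in capitals.
PRE8 (chrXIII:86836-86874, minus strand): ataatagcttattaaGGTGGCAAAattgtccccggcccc
PRE1 (chrV:177678-177716, plus strand): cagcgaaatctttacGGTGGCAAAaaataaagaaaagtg
RPT6 (chrVII:411347-411385, minus strand): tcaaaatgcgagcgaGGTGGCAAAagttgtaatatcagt
RPN6 (chrIV:286785-286823, minus strand): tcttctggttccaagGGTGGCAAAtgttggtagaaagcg
RPN7 (chrXVI:742285-742323, plus strand): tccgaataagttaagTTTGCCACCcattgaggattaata
ECM29 (chrVIII:39938-39976, plus strand): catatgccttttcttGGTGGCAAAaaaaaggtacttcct
The 8 genes without these letters in the window were PRE5, PUP1, RPN10, RPN13, RPN8, UMP1, BLM10 and RPN4 itself. In 5 of the 8 a stretch stood that differs from GGTGGCAAA by 1 letter, a search added after the values were seen, and such a stretch stood in 6.42% of all windows. Those of PUP1 and RPN10, which fell in PRP22-OE, are shown with the 9 letters in capitals.
PUP1 (chrXV:631886-631924, minus strand): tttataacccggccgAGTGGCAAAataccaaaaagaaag
RPN10 (chrVIII:498963-499001, plus strand): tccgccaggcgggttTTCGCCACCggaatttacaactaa

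The window of RPN4 is shown whole because RPN4 gave the most stable difference among the 36 genes. RPN4 is known to be activated by Hsf1p, Pdr1p, Pdr3p and Yap1p, and its window held the letters of a heat shock element, searched on both strands as GAA, TTC and GAA with any 2 bases between neighbours. They are in capitals, in the reverse orientation, 8 bases before the start.
RPN4 (chrIV:416659-416958, minus strand): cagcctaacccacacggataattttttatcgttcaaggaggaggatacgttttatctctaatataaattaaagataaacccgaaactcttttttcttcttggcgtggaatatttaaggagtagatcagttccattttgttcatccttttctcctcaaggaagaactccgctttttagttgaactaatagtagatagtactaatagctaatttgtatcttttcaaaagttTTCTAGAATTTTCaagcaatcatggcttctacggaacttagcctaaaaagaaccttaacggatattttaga
The heat shock letters stood in 0.783% of all windows and in no other gene of the set. The Pdr1p and Pdr3p letters TCCGCGGA stood in 0.217% of all windows and, within the set, in RPN11 alone, while TCCACGGA stood in 0.4% of all windows and in none of the set. The Yap1p letters TTACTAA, again on both strands, stood in 7.45% of all windows and in PRE5, RPN7, RPN8 and BLM10. A match describes letters in a window, and the absence of a match says only that these letters are not in it.

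Expression was given as FPKM, that is, fragments scaled to transcript length and to the fragments mapped in the library, so levels can be compared between genes. The depth, estimated from the steps between low values, lay between 13453481 and 17366063 fragments a library, and the 35 members of at least 450 bases rested on an estimated 1015 to 11525 fragments each, for a counting error of 3.1% at the lowest and 0.93% at the highest. The members' median difference between the cultures of a strain was 0.03 on the log2 scale in WT, 0.11 in LSM5-OE, 0.04 in TIF35-OE, 0.07 in UTP6-OE and 0.06 in PRP22-OE. The estimated mean fragment length was 309 to 314 bases in 7 libraries and 282 to 284 bases in the other 3, which were TIF35-OE culture 1, UTP6-OE culture 1 and PRP22-OE culture 2. In those 3 the ribosomal protein gene RPS30A stood at 17284 to 20057 FPKM, and in the other 7 it was listed at 0. Each added gene rose in its own strain, LSM5 by 1.95, TIF35 by 1.37, UTP6 by 1.32 and PRP22 by 1.08 on the log2 scale, although LSM5 also rose in TIF35-OE, by 1.05. LSM5 stood above both WT cultures (268 and 312 FPKM) in UTP6-OE (613 and 381) and PRP22-OE (399 and 553) as well, at 0.74 and 0.70 (adjusted p = 0.111 and 0.158), and PRP22 fell by 0.32 in TIF35-OE (adjusted p = 0.0321). LSM5 is 282 bases long, no longer than the mean fragment, so its FPKM is less certain than that of longer genes. Its LSM5-OE cultures stood at 865 and 1456 FPKM.

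Proteasome subunit genes were among the more highly expressed genes of these cells. In WT the highest of the 32 subunits in the set was PRE9, the alpha-ring subunit that yeast can live without, at 797 ± 18.9 FPKM (SD, n = 2). The lowest was RPN1, a scaffold of the 19S base, at 238 ± 1.89 FPKM. These levels lie at the 94.3rd and 80.7th percentiles of all features. The 20S subunits had a median of 596 and 623 FPKM in the WT cultures, the 19S subunits 384 and 395. Summed over the subunits of each particle in the set, the 20S to 19S ratio stayed between 1.17 and 1.27 in all 10 libraries. SEM1, also a lid gene, was not in the set and was counted with the associated factors below. It stood at 1018 and 1107 FPKM in WT, above PRE9, but is 270 bases long, shorter than the mean fragment. The subunit sums and the ratio leave SEM1 out.

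The other members fell outside that band, except UMP1. UMP1, the chaperone that guides maturation of the core, stood at 525 ± 20.5 FPKM in WT, within the range of the subunits. RPN4 stood at 112 ± 3.44 FPKM, BLM10, which caps the core in place of the 19S particle, at 37.8 ± 1.55 FPKM and ECM29, which tethers the core to the 19S particle, at 23.6 ± 0.0919 FPKM. RPN1, the lowest of the subunits, was above RPN4 in every culture, and RPN4 was above BLM10 and ECM29 in every culture.

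**Figure D1:**
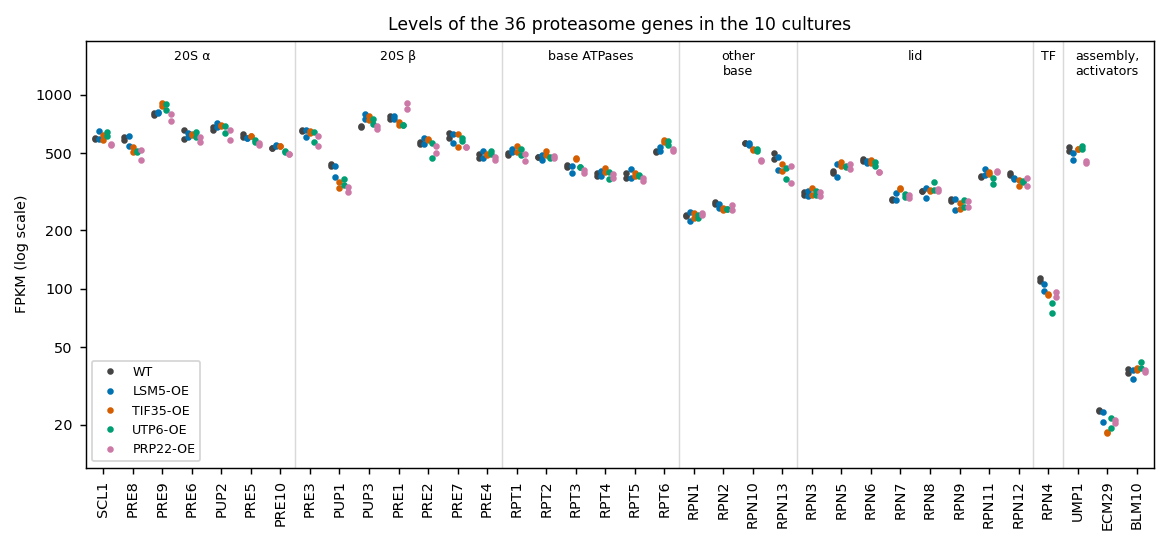
FPKM (log axis) of the 36 proteasome genes, ordered by role, with 1 point for each of the 10 cultures coloured by strain. The 32 subunits form a band, RPN4 sits below it between 75.2 and 114 FPKM, and ECM29 and BLM10 lie lowest, with PUP1, RPN10 and RPN4 showing the clearest separation of strains.

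The summed FPKM of the 32 subunits was 15639 and 15842 in WT, 15768 and 15735 in LSM5-OE, 15676 and 15955 in TIF35-OE, 15088 and 15620 in UTP6-OE, and 15142 and 14519 in PRP22-OE. On this scale both PRP22-OE and both UTP6-OE cultures lay below both WT cultures, while the other strains overlapped WT. Rescaling the libraries by the median of ratios moved the 36 genes' median log2 fold change from -0.02 to 0.05 in UTP6-OE. In TIF35-OE it moved from 0.01 to 0.10 and in PRP22-OE from -0.08 to -0.03. The placing of the UTP6-OE and TIF35-OE sums relative to WT thus depends on the scale. The mean sum differed from WT by 0.0718% in LSM5-OE, 0.478% in TIF35-OE, -2.45% in UTP6-OE and -5.78% in PRP22-OE. With 2 cultures against 2 the smallest p an exact permutation test can give is 0.333, so the sums were not tested.

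Fold changes were tested gene by gene with limma over all 5768 features that passed the filter, with Benjamini-Hochberg adjustment, and a gene was called at an adjusted p of at most 0.05. In LSM5-OE none of the 36 genes was called, whereas 7.65% of all features were (4.7% higher, 2.95% lower), and the members' median log2 fold change was -0.02 against -0.01 for all features. PUP3 of the beta ring was the only member with an unadjusted p under 0.05, at 0.17 (SE 0.06, adjusted p = 0.119). The 95% intervals of the 36 genes lay between -0.41 and 0.30, so larger changes in LSM5-OE fell outside every interval. Both cultures lay above both WT cultures for 6 members and below both for 8, where 24.1% and 25.5% of all features did so. Rescaling the libraries by the median of ratios added a call for PUP3 (0.18, adjusted p = 0.0395), and the test on estimated fragments with voom called none.

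In TIF35-OE, 2 members rose, the base ATPase RPT6 and the lid subunit RPN7, and 3 fell, RPN4, ECM29 and PUP1. The 5 genes were 13.9% of the set, against 30.3% of all features called (9.62% higher, 20.7% lower). The members' median was 0.01 while the median of all features was -0.10, and rescaling moved the latter to -0.01 and the members' median to 0.10. Both cultures were above both WT cultures for 13 members and below both for 11, as were 23.1% and 49.3% of all features. With rescaling 7 members were called higher (RPT2, RPT3, RPT6, RPN5, RPN7, PRE9 and PUP3) and only ECM29 lower. The direction of the set in this strain therefore depended on the scale, and the 5 calls fell to 0 when the 3 libraries with shorter fragments were left out, which keeps 1 culture of each of these strains. Calls over all features dropped there too, from 1748 to 282, while the 5 values stayed close to the main ones (ECM29 -0.39, PUP1 -0.29, RPN4 -0.27, RPN7 0.18 and RPT6 0.17).

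In UTP6-OE, 2 members fell, RPN4 and PUP1, and none rose. They were 5.56% of the set, against 29.1% of all features called (9.95% higher, 19.1% lower), and the members' median was -0.02 against -0.07 for all features. Both cultures were above both WT cultures for 8 members and below both for 15, where 26.1% and 45.0% of all features were so placed. Rescaling kept RPN4 and called PRE9, PUP3 and RPT6 higher. Without the shorter-fragment libraries RPN4 was the only member called (-0.57), PUP1 stood at -0.24, and calls over all features went from 1678 to 560.

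In PRP22-OE, 6 members fell and none rose. The 6 were PUP1 and PRE8 of the core, RPN10 of the base, RPN6 of the lid, UMP1 and RPN4, 16.7% of the set against 19.3% of all features called (7.09% higher, 12.2% lower). The members' median was -0.08 and that of all features -0.05, and both PRP22-OE cultures lay above both WT cultures for 6 members and below both for 18, against 24.4% and 40.3% of all features. Rescaling left UMP1, RPN6, RPN10 and PUP1 lower and added PRE1 as higher (0.24). With the shorter-fragment libraries left out no member was called and calls over all features went from 1114 to 247, with PUP1 at -0.38, RPN10 at -0.29, PRE8, RPN6 and RPN4 at -0.21 and UMP1 at -0.20.

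**Figure D2:**
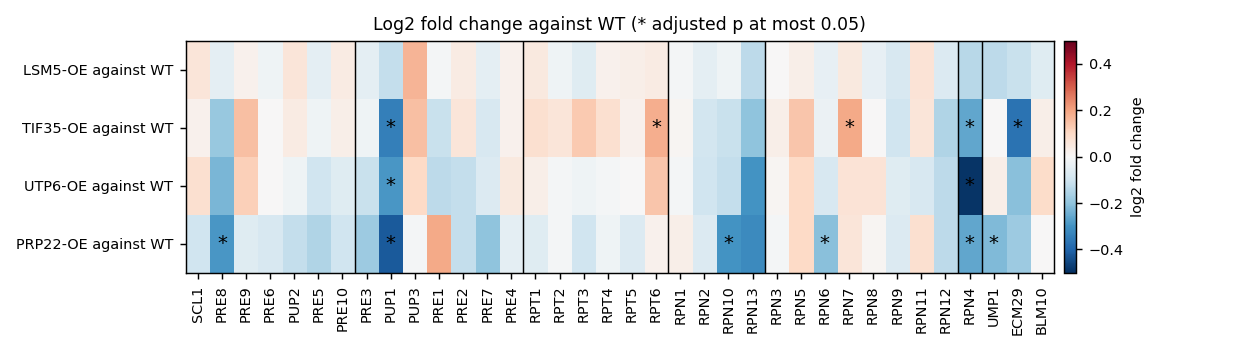
Log2 fold change of each of the 36 genes (columns, by role, with lines between roles) in each strain against WT (rows), from blue (lower) through white to red (higher), with a star where the adjusted p was at most 0.05. Stars gather in the columns of RPN4 and PUP1 and in the PRP22-OE row, and there is none in the LSM5-OE row.

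RPN4, the transcription factor of the proteasome genes, was lower than WT in 3 of the 4 strains. Its FPKM was 109 and 114 in WT, 97.1 and 106 in LSM5-OE, 93.8 and 92.6 in TIF35-OE, 84.5 and 75.2 in UTP6-OE, and 96.4 and 90.5 in PRP22-OE. All 8 cultures with an added gene lay below both WT cultures, and the UTP6-OE cultures were the lowest of the 10. RPN4 fell by 0.49 in UTP6-OE (SE 0.07, 95% interval -0.65 to -0.32, adjusted p = 0.00228), by 0.26 in TIF35-OE (SE 0.07, adjusted p = 0.0308) and by 0.26 in PRP22-OE (SE 0.07, adjusted p = 0.0431). In LSM5-OE the log2 fold change was -0.14 (adjusted p = 0.305).

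The RPN4 call in UTP6-OE held under all 16 alternatives, with log2 fold changes from -0.57 to -0.40 and adjusted p from 0.000113 to 0.0283. Those in TIF35-OE and PRP22-OE were lost with any 1 of the 4 cultures left out (-0.29 to -0.23 and -0.30 to -0.21) and with rescaling. That in PRP22-OE was also lost without a trend, with only the strains compared, with the replicate block and with fragment length as a covariate. Of 16 alternatives, 10 kept the call in TIF35-OE and 6 in PRP22-OE.

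Of the 7 alpha-ring genes, which form the gate of the core, PRE8 alone was called, in PRP22-OE. PRE8 stood at 586 and 609.8 FPKM in WT, 611 and 544 in LSM5-OE, 508 and 539 in TIF35-OE, 513 and 505 in UTP6-OE, and 517 and 462 in PRP22-OE. The last 3 strains lay below both WT cultures, and LSM5-OE overlapped WT. The log2 fold change was -0.29 in PRP22-OE (SE 0.08, adjusted p = 0.0349), -0.23 in UTP6-OE (adjusted p = 0.057) and -0.19 in TIF35-OE (adjusted p = 0.0962). The PRE8 call was lost with either WT culture or PRP22-OE culture 2 left out (adjusted p = 0.103, 0.172 and 0.178) and with rescaling (adjusted p = 0.0678). PRE9 had the highest alpha-ring value in TIF35-OE, at 0.15 (adjusted p = 0.0869), and PRE5 had -0.15 in PRP22-OE (adjusted p = 0.0558). SCL1, PRE6, PUP2 and PRE10 lay between -0.12 and 0.08 in all 4 strains, and the alpha-ring median ran from -0.10 in PRP22-OE to 0.02 in LSM5-OE and TIF35-OE.

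In the beta ring, PUP1, which carries the trypsin-like active site, was lower in the same 3 strains as RPN4. Its FPKM was 440.5 and 432 in WT, 431 and 376 in LSM5-OE, 332 and 357 in TIF35-OE, 343 and 369.6 in UTP6-OE, and 336 and 315 in PRP22-OE. Each culture with an added gene lay below both WT cultures, although LSM5-OE culture 1 did so by less than 1 FPKM. PUP1 fell by 0.42 in PRP22-OE (SE 0.08, adjusted p = 0.00912), by 0.34 in TIF35-OE (SE 0.08, adjusted p = 0.0166) and by 0.29 in UTP6-OE (SE 0.08, adjusted p = 0.0281), with -0.12 in LSM5-OE (adjusted p = 0.454). With rescaling the call stayed in PRP22-OE (adjusted p = 0.0177) and was lost in TIF35-OE and UTP6-OE (adjusted p = 0.0549 and 0.075). Fragment length as a covariate also ended the UTP6-OE call. The call in PRP22-OE was lost without WT culture 1 or PRP22-OE culture 2 (adjusted p = 0.0607 and 0.0589). That in TIF35-OE was lost without either WT culture or TIF35-OE culture 1 (adjusted p = 0.0852, 0.0701 and 0.0991), and that in UTP6-OE with any 1 culture left out (adjusted p = 0.0558 to 0.139).

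The other catalytic beta subunits were not called in any strain. PRE2, with the chymotrypsin-like site, ranged from -0.12 in UTP6-OE and PRP22-OE to 0.06 in TIF35-OE, and PRE3, with the caspase-like site, from -0.18 in PRP22-OE (adjusted p = 0.171) to -0.02 in TIF35-OE. PRE4 had its values between -0.05 and 0.05, PUP3 between -0.01 and 0.17, and PRE7 between -0.20 in PRP22-OE (adjusted p = 0.139) and -0.05 in LSM5-OE.

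PRE1, a non-catalytic beta subunit, had the highest value of the set in PRP22-OE. It stood at 754 and 781 FPKM in WT, 778 and 749 in LSM5-OE, 701 and 721 in TIF35-OE, 702 and 699 in UTP6-OE, and 907 and 841 in PRP22-OE. Both PRP22-OE cultures were above the other 8, and the TIF35-OE and UTP6-OE cultures were below both WT cultures. Against WT the log2 fold change was 0.19 (SE 0.05, 95% interval 0.06 to 0.31, adjusted p = 0.0503), just short of a call, and the adjusted p ranged from 0.00379 to 0.241 over 16 alternatives, 6 of which called it. PRE1 (chrV:177835-178431, plus strand) ends 409 bases before PRP22 (chrV:178841-182278, plus strand), with no annotated gene between them, and it was the only member within 1000 bases of an added gene. Whether that position has a part in the PRE1 value was not tested. RPN9, which lies 1090 bases from TIF35 with BNA7 between them, stood at -0.10 in TIF35-OE (adjusted p = 0.351).

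**Figure D3:**
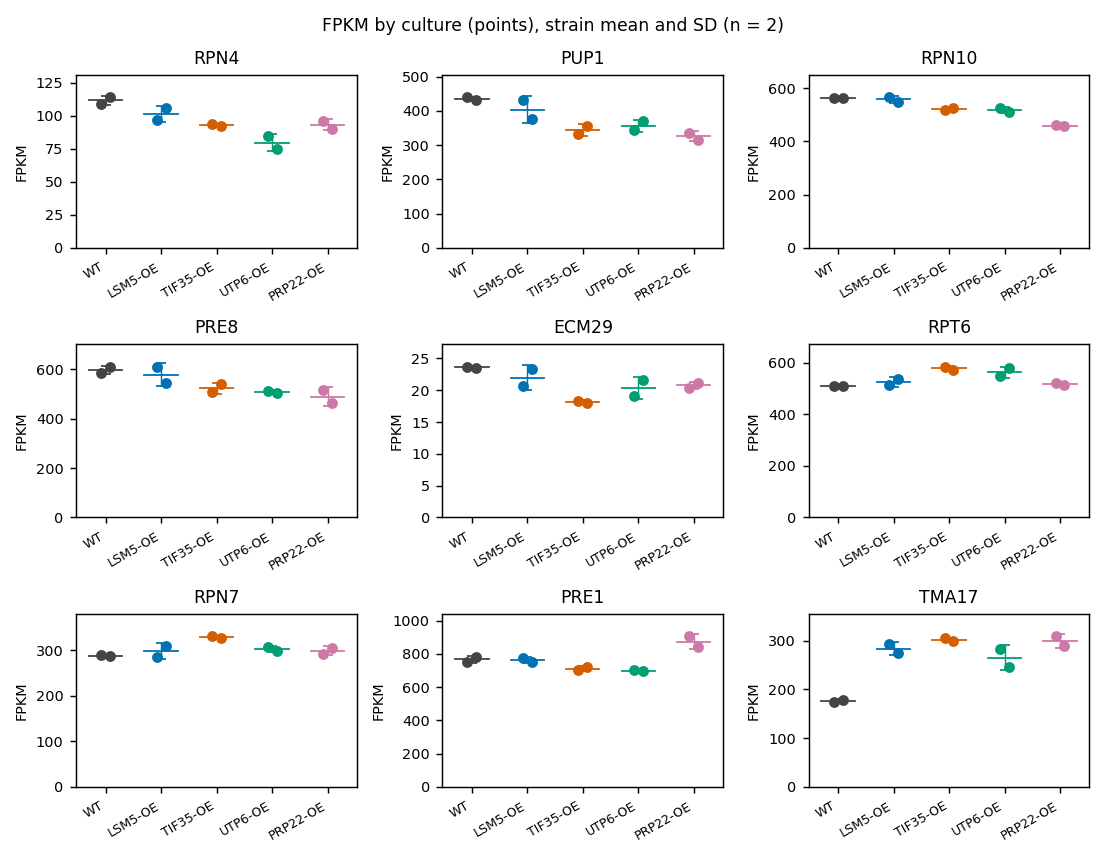
FPKM of 8 proteasome genes and of the assembly chaperone TMA17 in each culture (points), with the strain mean (line) and SD (bar, n = 2), all axes from 0. RPN4, PUP1 and RPN10 step down from WT, PRE1 is highest in PRP22-OE, and TMA17 is above WT in all 8 cultures with an added gene.

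Among the 6 base ATPases, RPT6 was called in TIF35-OE. RPT6 stood at 509 and 511 FPKM in WT, 512 and 538 in LSM5-OE, 585 and 573 in TIF35-OE, 549 and 579 in UTP6-OE, and 523 and 513 in PRP22-OE. Every culture with an added gene was above both WT cultures, by less than 2 FPKM in the closest. RPT6 rose by 0.18 in TIF35-OE (SE 0.05, adjusted p = 0.0293), a call lost with any 1 of the 4 cultures left out (adjusted p = 0.0827 to 0.138), and stood at 0.14 in UTP6-OE (adjusted p = 0.0663). The 6 ATPases had a median of 0.08 in TIF35-OE, with values from 0.02 (RPT5) to 0.18, and medians from -0.04 to 0.02 in the other strains. RPT3 had the widest range of those not called, from -0.10 in PRP22-OE to 0.13 in TIF35-OE (adjusted p = 0.1).

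The ubiquitin receptor RPN10 gave the next most stable call after that of RPN4 in UTP6-OE. RPN10 stood at 565 and 563 FPKM in WT, 566 and 549 in LSM5-OE, 518 and 524 in TIF35-OE, 526 and 511 in UTP6-OE, and 460.03 and 458 in PRP22-OE. The PRP22-OE cultures were the lowest of the 10, and those of TIF35-OE and UTP6-OE lay between them and WT. RPN10 fell by 0.30 in PRP22-OE (SE 0.04, 95% interval -0.40 to -0.20, adjusted p = 0.00329), with -0.12 in UTP6-OE (adjusted p = 0.0718) and -0.11 in TIF35-OE (adjusted p = 0.0859). Each culture could be left out without loss of the call (adjusted p = 0.0197 to 0.0336), and of 16 alternatives only leaving out the 3 shorter-fragment libraries ended it (-0.29, adjusted p = 0.0825).

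RPN13, also a ubiquitin receptor, had values of -0.32 in PRP22-OE (adjusted p = 0.106) and -0.30 in UTP6-OE (adjusted p = 0.0974). Its PRP22-OE cultures, at 432 and 349.9 FPKM, differed by 0.30 on the log2 scale, the widest gap of any member between the cultures of a strain. The scaffolds RPN1 and RPN2 ranged from -0.10 to 0.03 over the 4 strains.

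Of the 8 lid genes in the set, RPN7 was called in TIF35-OE and RPN6 in PRP22-OE. RPN7 stood at 289 and 287 FPKM in WT, 285 and 310.3 in LSM5-OE, 331 and 327 in TIF35-OE, 307 and 299 in UTP6-OE, and 293 and 306 in PRP22-OE. TIF35-OE was highest, and LSM5-OE alone overlapped WT. RPN7 rose by 0.19 in TIF35-OE (SE 0.05, adjusted p = 0.0321), and the call was lost with any 1 of the 4 cultures left out (adjusted p = 0.0956 to 0.137).

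RPN6, which braces the lid against the core, stood at 469 and 456 FPKM in WT, 443 and 455 in LSM5-OE, 446 and 462 in TIF35-OE, 428 and 449 in UTP6-OE, and 399 and 398 in PRP22-OE. The PRP22-OE cultures were the lowest of the 10, those of LSM5-OE and UTP6-OE also lay below both WT cultures, and TIF35-OE overlapped WT. RPN6 fell by 0.21 there (SE 0.05, adjusted p = 0.0194), a call lost with any 1 of the 4 cultures left out (adjusted p = 0.0717 to 0.126). RPN11, the deubiquitinase, had values from -0.08 in UTP6-OE to 0.08 in PRP22-OE, RPN3, RPN8 and RPN9 lay between -0.10 and 0.07, and RPN5 between 0.03 and 0.14. RPN12 was negative in all 4 strains, from -0.15 in TIF35-OE (adjusted p = 0.0957) to -0.07 in LSM5-OE.

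UMP1 fell in PRP22-OE. Its FPKM was 511 and 539.9 in WT, 459.6 and 499 in LSM5-OE, 524 and 525 in TIF35-OE, 548 and 526 in UTP6-OE, and 457 and 443 in PRP22-OE. The PRP22-OE cultures were lower than all the others, and the TIF35-OE cultures lay within the WT range. The log2 fold change was -0.22 in PRP22-OE (SE 0.06, adjusted p = 0.0317), lost with any 1 of the 4 cultures left out (adjusted p = 0.0779 to 0.189).

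ECM29 fell in TIF35-OE and was the member with the lowest level. It stood at 23.7 and 23.6 FPKM in WT, 20.6 and 23.3 in LSM5-OE, 18.4 and 18.0 in TIF35-OE, 19.1 and 21.6 in UTP6-OE, and 20.3 and 21.2 in PRP22-OE. Every culture with an added gene was below both WT cultures, and TIF35-OE was the lowest. In TIF35-OE the difference was -0.37 on the log2 scale (SE 0.09, adjusted p = 0.0176), a call kept with rescaling but lost with any 1 of the 4 cultures left out (adjusted p = 0.0714 to 0.085). BLM10 was not called, with values from -0.06 to 0.09.

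The 28 genes with the PACE letters were next set beside the 7 without them, RPN4 left out. With the letters, the median log2 fold change was 0.01 in LSM5-OE, 0.03 in TIF35-OE, -0.02 in UTP6-OE and -0.07 in PRP22-OE. Without them it was -0.06, -0.02, -0.10 and -0.22 in the same order, below the other set in each strain. The split is by the exact letters, and PRE5, PUP1, RPN10, RPN13 and RPN8 of the 7 hold a stretch with 1 letter changed. In PRP22-OE the lowest of the second set were PUP1, RPN13, RPN10 and UMP1. In UTP6-OE, where RPN4 was lowest, none of the 28 genes was called, and their values ran from -0.23 to 0.14. In TIF35-OE, 2 of the 28 rose (RPT6 and RPN7) and ECM29 fell, and in PRP22-OE PRE8 and RPN6 fell. The other 42 tested genes of the genome with the letters had medians of -0.02, -0.10, -0.09 and -0.07, with 0, 9, 11 and 6 genes called lower and 0, 1, 1 and 2 called higher. Over all features 2.95%, 20.7%, 19.1% and 12.2% were called lower and 4.7%, 9.62%, 9.95% and 7.09% higher. Each strain was compared with the same WT cultures, so these values are not independent, and the difference between the sets was not tested.

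**Figure D4:**
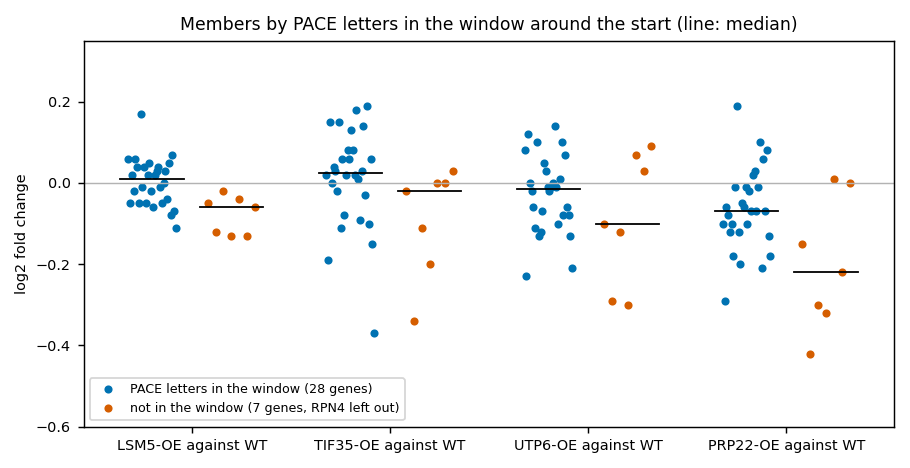
Log2 fold change against WT (vertical axis) of the 28 members with the PACE letters in the window (blue) and the 7 without these exact letters (orange). RPN4 is left out. Each point is 1 gene and black lines mark the medians, for each of the 4 strains. The blue medians lie between -0.07 and 0.03, and the orange medians lie lower in each strain, down to -0.22 in PRP22-OE.

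Of 14 further assembly chaperones and associated factors, TMA17 was called in all 4 strains and was higher in each. Tma17p is a chaperone that helps build the ATPase ring of the base under stress. Its FPKM was 175 and 179 in WT, 293 and 275 in LSM5-OE, 305 and 299 in TIF35-OE, 283 and 247 in UTP6-OE, and 309 and 289 in PRP22-OE. All 8 cultures with an added gene were above both WT cultures, the lowest of them at 247 FPKM. TMA17 rose by 0.68 in LSM5-OE (adjusted p = 0.00212), 0.77 in TIF35-OE (adjusted p = 0.000376), 0.58 in UTP6-OE (adjusted p = 0.00106) and 0.76 in PRP22-OE (adjusted p = 0.000362), with an SE of 0.07 in each, and these calls held under every one of the 16 alternatives run for each strain. The 4 comparisons share the WT cultures, so a low WT value would raise all 4. TMA17 was the only one of the 14 called in LSM5-OE, where 7.65% of all features were.

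The rest of that list moved in both directions. Counting TMA17, 3 of the 14 were higher and 1 lower in TIF35-OE, 2 and 2 in UTP6-OE, and 1 and 2 in PRP22-OE. Of all features, 9.62%, 9.95% and 7.09% were called higher in these strains and 20.7%, 19.1% and 12.2% lower. HUL5, a ubiquitin ligase of the proteasome, fell by 0.20 in TIF35-OE (adjusted p = 0.0254), by 0.35 in UTP6-OE (adjusted p = 0.00211) and by 0.23 in PRP22-OE (adjusted p = 0.0197). FUB1 rose by 0.43 in TIF35-OE (adjusted p = 0.0035) and by 0.31 in UTP6-OE (adjusted p = 0.0117), and the base chaperone NAS2 fell by 0.24 in PRP22-OE (adjusted p = 0.0472).

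Of 26 genes of ubiquitin, its conjugation and delivery to the proteasome, none was called in LSM5-OE, 1 was higher and 4 lower in TIF35-OE, 1 and 7 in UTP6-OE, and 1 and 3 in PRP22-OE. In LSM5-OE 7.65% of all features were called. Of all features, 20.7%, 19.1% and 12.2% were called lower in the other 3 strains, against 4, 7 and 3 of the 26. The shares called higher there were 9.62%, 9.95% and 7.09%, against 1 of the 26 in each. DSK2, a shuttle that carries ubiquitinated proteins to the proteasome, fell by 0.33, 0.25 and 0.37 in the last 3 strains (adjusted p = 0.0117, 0.0294 and 0.0085). DOA4, which recovers ubiquitin, fell by 0.39 in TIF35-OE (adjusted p = 0.0434) and by 0.54 in UTP6-OE (adjusted p = 0.0125), and the ligase gene HUL4 fell by 0.63 in UTP6-OE (adjusted p = 0.0049).

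The genes known to act on RPN4 were largely uncalled, as were most features. Of the 6 listed, PDR1 fell by 0.29 in TIF35-OE (adjusted p = 0.0119) and HSF1 by 0.26 in UTP6-OE (adjusted p = 0.0319), and there was no call in LSM5-OE or PRP22-OE. Of 8 targets of Hsf1p, 7 fell in PRP22-OE (median -0.38), among them HSP26 by 0.84 and HSP82 by 0.74 (adjusted p = 0.00048 and 0.000247), while 3 fell in UTP6-OE (HSP82, STI1 and FES1, median -0.18), 2 fell in LSM5-OE (HSP82 and FES1), and in TIF35-OE 2 rose and 2 fell. Of 7 targets of Pdr1p and Pdr3p, 5 fell in TIF35-OE, 3 fell and 1 rose in UTP6-OE, 1 fell and 1 rose in PRP22-OE, and 2 fell and 1 rose in LSM5-OE. Of 5 targets of Yap1p, 3 fell in UTP6-OE, 4 in PRP22-OE and none was called in the other strains. Of all features, 2.95%, 20.7%, 19.1% and 12.2% were called lower in the LSM5, TIF35, UTP6 and PRP22 strains. In the same order, 4.7%, 9.62%, 9.95% and 7.09% were called higher. The lists are short, and their part in the RPN4 values was not tested.

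The strains with an added gene were also compared with each other, in 6 pairs. Against LSM5-OE, no member was called in TIF35-OE (11.4% of all features were, 2.5% higher and 8.88% lower), RPN4 alone in UTP6-OE (22.8% of all features, 6.4% higher and 16.4% lower) and RPN10 alone in PRP22-OE (4.82% of all features, 0.728% higher and 4.09% lower). In TIF35-OE against LSM5-OE, PUP1, RPT3, RPT6, RPN7 and ECM29 had an unadjusted p under 0.05, the test on estimated fragments with voom called 4 members, and rescaling called UMP1, RPT3, RPT6, PRE9 and RPN7 higher. Rescaling also called UMP1, BLM10 and RPT6 higher in UTP6-OE and PRE1 higher in PRP22-OE. RPN4 was lower in UTP6-OE than in LSM5-OE by -0.35 on the log2 scale (SE 0.07, adjusted p = 0.0137), a call lost without LSM5-OE culture 2 or UTP6-OE culture 2 (adjusted p = 0.0593 and 0.0791). RPN10 was lower in PRP22-OE than in LSM5-OE by -0.28 (SE 0.04, adjusted p = 0.0119). That call was lost without LSM5-OE culture 1 or either PRP22-OE culture.

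The other 3 pairs were added after the values were seen. No member was called between UTP6-OE and TIF35-OE, where 6.61% of all features were called (2.46% higher, 4.14% lower), also with rescaling, and RPT3, RPN11 and RPN4 had an unadjusted p under 0.05. In PRP22-OE against TIF35-OE, with 11.3% of all features called (5.93% higher, 5.39% lower), PRE1 was higher (0.30) and RPT3, UMP1, RPN6 and RPN10 lower (-0.23, -0.22, -0.19 and -0.18). In PRP22-OE against UTP6-OE, with 10.1% of all features called (6.35% higher, 3.73% lower), PRE1 was again higher (0.32) and UMP1 and RPN10 lower (-0.26 and -0.18). Rescaling kept PRE1 as the only member called higher in both pairs and raised the members called lower to 9 and 4. PRE1, UMP1 and RPN10 were called in both pairs, which share the PRP22-OE cultures. Of the set, 13.9% was called in the first of these pairs and 8.33% in the second, against 11.3% and 10.1% of all features. The added pairs were run only in the main setting and with rescaling, so their calls were not tried with a culture left out.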

How the data were processed

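The authors deposited FPKM values for 5824 features in 10 libraries. Their table of raw reads held the same FPKM values in all 58240 cells, so no counts were used. RNA was extracted with a Zymo kit and made into TruSeq libraries. The study's methods name HISAT2, featureCounts, edgeR's filterByExpr and DESeq2, whereas the submitters' processing notes name STAR, RSEM, edgeR and limma, and versions are not given in the sources used here. Groups came from the labels.

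The 5768 features that averaged 1 FPKM or more were tested with limma 3.58.1 (R 4.3.3) on log2(FPKM + 0.5), with all 10 libraries in 1 fit (5 residual degrees of freedom), a mean trend and Benjamini-Hochberg adjustment. Fold changes are on that scale, which understates those of low genes. This test replaced a count test, since the files held no counts. Depth and fragment length were estimated from the spacing of low values, 75.0 to 92.9% of which lay within 0.15 of a whole step, and these estimates were used only for alternatives. The procedure was tested on simulated data. Alternatives changed the pseudocount, filter, scaling, trend, samples, block, minimum length, fragment length term and test. Sequences came from RefSeq R64, to which 5775 features matched by locus tag. Python 3.11.15 with pandas 2.3.3 and matplotlib 3.10.9 was used. No annotated feature overlapped a member.

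Full values were given for RPN4 and, in each strain, for the 3 largest called rises and falls with both cultures beyond both WT cultures, and those of PRE1, RPN6, UMP1 and TMA17 were added after they were seen, as was DSK2 in UTP6-OE. Of the other lists, at most the 2 largest calls each way were named, apart from DSK2 and FES1 in UTP6-OE. The members and lists were chosen with earlier results of these data known. Cultures were independent, but p-values rest on 2 per strain.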

Additional observations from a re-analysis of the deposited data

Results flagged for a closer look

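In 10 cases a test of the difference between strains with an added gene called a proteasome gene, so that its effect against WT differed between them. RPN4 was lower in UTP6-OE than in LSM5-OE by -0.35 (SE 0.07, adjusted p = 0.0137, limma with Benjamini-Hochberg adjustment), and RPN10 was lower in PRP22-OE than in LSM5-OE by -0.28 (SE 0.04, adjusted p = 0.0119). The remaining 8 came from the pairs added after the values were seen, which were run only in the main setting and with rescaling. In PRP22-OE against TIF35-OE, PRE1 differed by 0.30 (adjusted p = 0.0157), RPT3 by -0.23 (adjusted p = 0.038), RPN10 by -0.18 (adjusted p = 0.0387), RPN6 by -0.19 (adjusted p = 0.0465) and UMP1 by -0.22 (adjusted p = 0.0476). In PRP22-OE against UTP6-OE, PRE1 differed by 0.32 (adjusted p = 0.012), RPN10 by -0.18 (adjusted p = 0.0445) and UMP1 by -0.26 (adjusted p = 0.0326). The paired strains did not overlap in any of these cases, but the cases were picked by their calls, so this adds no separate support.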

How the results depend on the processing

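No alternative run reversed a direction among the called values. Rescaling by the median of ratios changed the number of members called from 0 to 1 in LSM5-OE, 5 to 8 in TIF35-OE and 2 to 4 in UTP6-OE against WT, and from 0 to 5, 1 to 4 and 1 to 2 in the TIF35, UTP6 and PRP22 strains against LSM5-OE. Numbers in brackets are calls over all features. Leaving out the 3 libraries with shorter fragments gave 0, 1 and 0 in the TIF35, UTP6 and PRP22 strains against WT (282, 560 and 247 features, from 1748, 1678 and 1114) and 0 in both of UTP6-OE and PRP22-OE against LSM5-OE (295 and 19, from 1316 and 278), with the lone culture of a strain assumed to vary like the others. Voom on estimated fragments gave 8 in TIF35-OE and 7 in UTP6-OE against WT (2000 and 1964), and 4, 4 and 3 in the TIF35, UTP6 and PRP22 strains against LSM5-OE (1020, 1562 and 456). Fitting only the strains compared gave 2 in PRP22-OE against WT (889) and 0 in UTP6-OE and PRP22-OE against LSM5-OE (499 and 74). Keeping features of at least 400 bases gave 4 in UTP6-OE against WT (1826), and 1 and 2 in TIF35-OE and PRP22-OE against LSM5-OE (857 and 402), and fragment length as a covariate gave 1 in TIF35-OE against LSM5-OE (467). The cause of these changes was not tested. With 1 culture left out, the number called ranged from 0 to 0 in LSM5-OE, 0 to 1 in TIF35-OE, 1 to 1 in UTP6-OE and 1 to 4 in PRP22-OE against WT, and from 0 to 0, 0 to 1 and 0 to 2 in the TIF35, UTP6 and PRP22 strains against LSM5-OE.

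The culture numbers showed no consistent pairing of the samples: the correlation of same-numbered deviations ran from -0.36 to 0.43 over 10 strain pairs. For features of at least 400 bases it ran from -0.24 to 0.20. Such ranges do not exclude handling shared by same-numbered cultures. With the replicate block, members called were 0, 5, 2 and 4 in the LSM5, TIF35, UTP6 and PRP22 strains against WT and 0, 1 and 1 against LSM5-OE, and of 25 named values 23 kept their side of the threshold, with RPN4 (-0.26, adjusted p = 0.0642, limma) and UMP1 (-0.22, adjusted p = 0.0506) lost in PRP22-OE. With 2 cultures a strain, the smallest change of a member called against WT was 0.18 on the log2 scale.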
